A study of Mus musculus with 1536 samples.

Results

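Of the 53263 gene symbols in the table, 8 genes of the GABA pathway were described across single serotonin neurons of the mouse raphe. They were chosen by name for their steps in the pathway. Gad1 and Gad2 make GABA, Slc32a1 loads it into vesicles, Slc6a11 takes it up, Abat and Aldh5a1 break it down, and Aldh1a1 and Aldh9a1 encode aldehyde dehydrogenases that can make it by another route. The cells came from C57BL/6J mice aged 40 to 45 days whose labelled genotype was Sert-tdTomato-Cre cross with Ai14, in which Cre under the serotonin transporter gene switches on the red reporter tdTomato. The reporter stays on in any cell in which Cre was once active, so it marks a lineage as well as present expression. All cells shared this genotype, and no agent was given. The dissection labelled Principal DR gave 290 cells of the principal dorsal raphe (pDR) on 5 plates, and the dissection labelled All DR gave 709 cells on 11 plates. By the study's methods the second also held the caudal dorsal raphe (cDR) and the median raphe (MR). In that study each dissection drew on several brains, and mice of both sexes were used. The labels name no animals, so cells could not be tied to brains and each dissection is treated as 1 sample. Cells give no p-value here, and the spread between plates stands beside each mean. Plate and dissection cannot be told apart, since no plate held cells of both.

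GABA is made from glutamate by 2 glutamate decarboxylases, GAD67 from Gad1 and GAD65 from Gad2, both of which need the cofactor pyridoxal phosphate. GABA neurons then load it into synaptic vesicles through VGAT, the product of Slc32a1, and clear it from the cleft through plasma membrane transporters, among them GAT3 (Slc6a11), found mostly on astrocytes. In mitochondria, GABA transaminase (Abat) turns GABA into succinic semialdehyde, which succinic semialdehyde dehydrogenase (Aldh5a1) oxidizes to succinate. An alternative route starts from putrescine, which amine oxidases and an aldehyde dehydrogenase convert to GABA. ALDH1A1 has been tied to this route in midbrain dopamine neurons, and ALDH9A1 oxidizes gamma-aminobutyraldehyde.

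The members lie on 6 chromosomes of GRCm38. Gad1 spans chr2:70553072-70602014 on the plus strand, Gad2 chr2:22622205-22693874 and Slc32a1 chr2:158610767-158615748, and all 3 are protein-coding genes of the plus strand. Gad1 shares its locus with the antisense gene Gad1os, which had a read in 0.501% of cells. Slc6a11 spans chr6:114131241-114249952, Abat chr16:8513429-8621568, Aldh5a1 chr13:24907579-24937661 on the minus strand, Aldh1a1 chr19:20492715-20643465 and Aldh9a1 chr1:167349991-167368532. Reads were counted without regard to strand, and 5 members have a gene on the opposite strand (Gad1, Slc32a1, Slc6a11, Aldh5a1 and Aldh1a1). In the counting mode the study names, intersection-nonempty, a read that fits exons of several genes equally is left uncounted. Reads where exons of such a member and its opposite gene overlap could therefore be missing from the member's count. How many were lost was not tested. Aldh1a1 also has a near-identical copy, Aldh1a7, which had a read in 1.10% of cells.

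The stretches upstream of the 3 genes that define a GABA neuron are shown because the 2 synthesis genes were often read in the same cell and the vesicular transporter almost never. They are from RefSeq on GRCm38.p6, all on the plus strand, and end where an exon of GENCODE M21 or the RefSeq start begins. RefSeq windows of 250 bases before the start were found for 7 members, and Abat had none. The capitals mark TATAAA on either strand.
Gad1 (chr2:70561879-70562041, inside the GENCODE gene and outside its exons): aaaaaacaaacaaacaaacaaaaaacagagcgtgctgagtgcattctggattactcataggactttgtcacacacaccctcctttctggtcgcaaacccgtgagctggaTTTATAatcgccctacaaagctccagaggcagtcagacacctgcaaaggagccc
Gad2 (chr2:22622077-22622204, before the gene): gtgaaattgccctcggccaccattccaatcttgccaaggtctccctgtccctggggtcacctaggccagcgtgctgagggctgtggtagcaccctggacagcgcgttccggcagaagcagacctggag
Slc32a1 (chr2:158610508-158610757, before the gene): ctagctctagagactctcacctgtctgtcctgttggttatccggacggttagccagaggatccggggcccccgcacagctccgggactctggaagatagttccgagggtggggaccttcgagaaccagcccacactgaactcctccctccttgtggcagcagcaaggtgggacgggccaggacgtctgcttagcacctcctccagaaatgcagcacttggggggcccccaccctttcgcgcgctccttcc
Searched on both strands, TATAAA was found in the window of Gad1 and not in those of Gad2 and Slc32a1, and in 12.4% of all 32841 RefSeq windows of this length. The GATA sequences AGATAA and TGATAA were in none of the 3 windows, against 9.99% and 7.94% of all windows. The G and C content was 58.0% for Gad1, 64.0% for Gad2 and 62.4% for Slc32a1, and the median of all windows was 52.4%.

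Cells were sequenced to a median of 827283 reads on genes, with a range from 96834 to 2780443 and a median of 9554 detected genes. The median was 755926 reads in the pDR and 869546 in the other dissection. All 4 serotonin genes of the marker list (Tph2, Slc6a4, Fev and Ddc) were read in over 50% of cells in both dissections. Of the 8 astrocyte genes listed, 4 were used to flag cells (Aqp4, Gja1, Gfap and Slc1a3). No read of these 4 was found in 876 cells (87.7%). In 3 cells, all of the All DR dissection, they summed to over 100 CPM (reads of a gene scaled to the cell's total on genes). These 3 are the cells called rich in astrocyte genes below. One of them held 61351 CPM of Mbp, a myelin gene, with 714 CPM of Tph2 and no read of Slc6a4. It touches the values of Slc6a11 and Aldh1a1 below. Over all 8 astrocyte genes, 24 cells summed to over 100 CPM, 12 in each dissection. Over the 6 oligodendrocyte genes listed, 172 cells did. Shares count cells with 1 or more reads of a gene and carry exact Clopper-Pearson 95% intervals. These cover counting error only: they treat cells as independent draws and leave out the spread between plates. Smart-seq2 reads also carry no molecular identifiers.

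Gad2 was the more widely expressed of the synthesis genes. It had a read in 330 of 999 cells, which is 33.0% (30.1 to 36.0%), and Gad1 in 136 cells, 13.6% (11.5 to 15.9%). Expression of Gad1 was close to all or none: the cells with a read of it held a median of 288.5 reads, and 4 of them held fewer than 5. For Gad2 the median was 55.0 reads, and 13 cells held fewer than 5. Few cells therefore sat at the limit of detection, and the shares moved little when every cell was thinned to 250000 reads, to 13.5% for Gad1 and 32.5% for Gad2 of the 990 cells deep enough.

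Both synthesis genes had higher plate means in the pDR. The 5 pDR plates had mean Gad1 levels of 219.8, 204.4, 54.3, 99.2 and 76.4 CPM, and the 11 plates of the other dissection ran from 0.290 to 18.9 CPM with a median of 11.6. The lowest pDR plate was above the highest of the others, but the pDR plates themselves fell into a pair above 200 CPM and 3 below 100 CPM. For Gad2 the pDR plates lay close together, at 55.0, 60.6, 50.2, 48.4 and 55.8 CPM, and the other plates ran from 8.69 to 28.8 CPM with a median of 22.6. These did not overlap either. As log2 ratios of the means over plates, with 1 CPM added, the difference was 3.56 for Gad1 and 1.29 for Gad2. Of the 12834 genes with a mean of at least 1 CPM, 3.39% had a log2 ratio of at least 1 in this direction and 4.18% had plate means that did not overlap and were higher in the pDR. The 2 synthesis genes were the members among both, out of 7 members that reached 1 CPM.

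**Figure D1:**
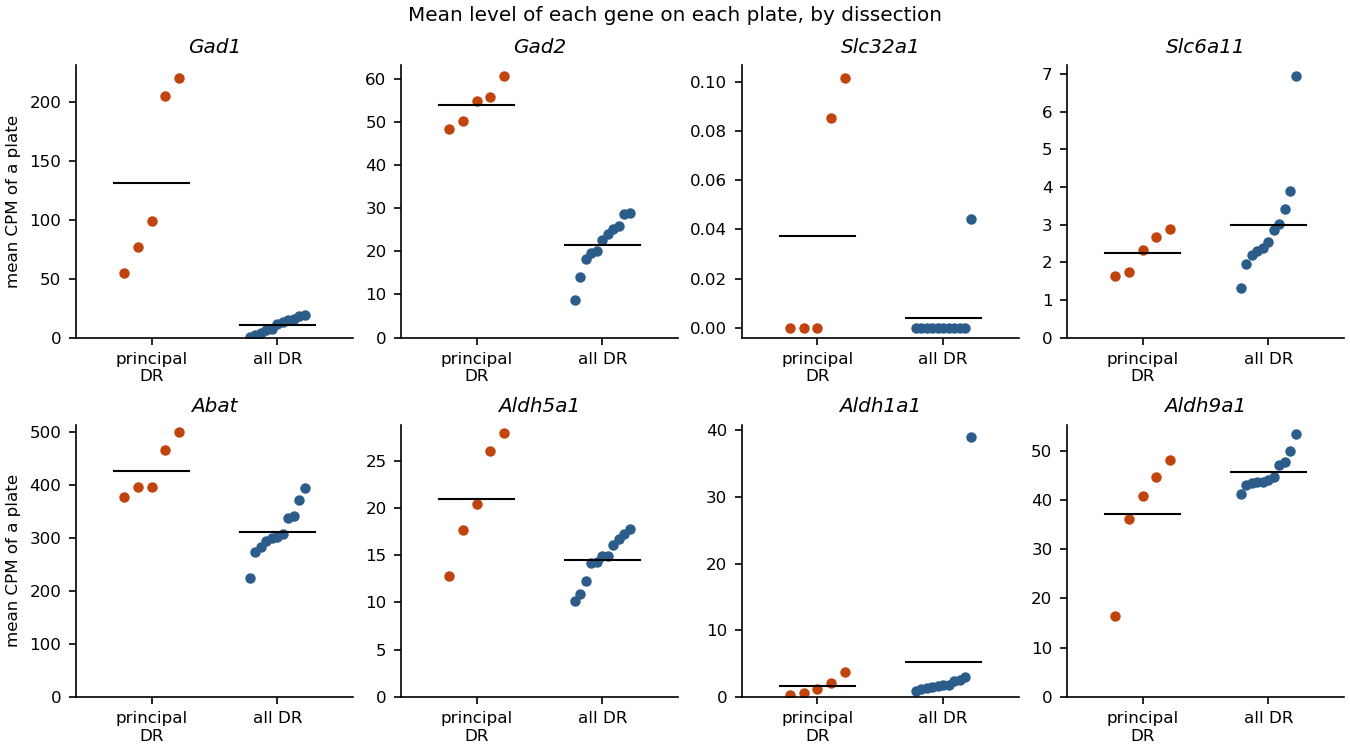
Mean CPM of each member (y axis, from 0) on the 5 pDR plates and the 11 All DR plates, 1 point per plate, with a bar at the mean over plates. Gad1 and Gad2 do not overlap between dissections, Slc32a1 is at 0 on 13 of 16 plates, and 1 All DR plate stands at 39.0 CPM of Aldh1a1.

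Gad2 differed between dissections in the share of cells with a read, with similar means in those cells, and Gad1 differed in both. Gad2 was read in 59.7% of pDR cells (53.8 to 65.4%) and in 22.1% of the others (19.1 to 25.4%), and its mean in the cells with a read was 92.9 and 97.9 CPM. Gad1 was read in 36.6% (31.0 to 42.4%) and 4.23% (2.87 to 5.99%), and its mean in those cells was 434.5 and 245.1 CPM.

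The 2 genes were not used alike. Cells with Gad1 nearly always had Gad2: 119 of 136, which is 87.5% (80.7 to 92.5%), had both. Cells with Gad2 had Gad1 in 36.1% (30.9 to 41.5%). In the pDR, 96 cells had both, 77 had Gad2 only, 10 had Gad1 only and 107 had neither. In the other dissection 23 cells had both, 134 had Gad2 only, 7 had Gad1 only and 545 had neither. Gad1 was thus found in 57.9% of the Gad-positive cells of the pDR and in 18.3% of the Gad-positive cells of the other dissection. By plate this share ran from 32.0 to 72.7% in the pDR and from 13.3 to 28.6% elsewhere. No plate of one dissection reached the other, and within the pDR the plates SER12 and SER13 (68.9% and 72.7%) stood above the other 3 (32.0, 43.8 and 34.6%). The share of cells positive for either gene was far more even, from 57.1 to 65.6% over the pDR plates and from 18.2 to 28.8% over the others. These 2 plates had the lowest median depths of the pDR, 713109 and 632724 reads against 927186 to 1536580. In the pDR the median depth was 706536 reads for cells with both genes, 796097 for Gad2 only and 760952 for neither. A link of depth with these shares was not tested.

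**Figure D2:**
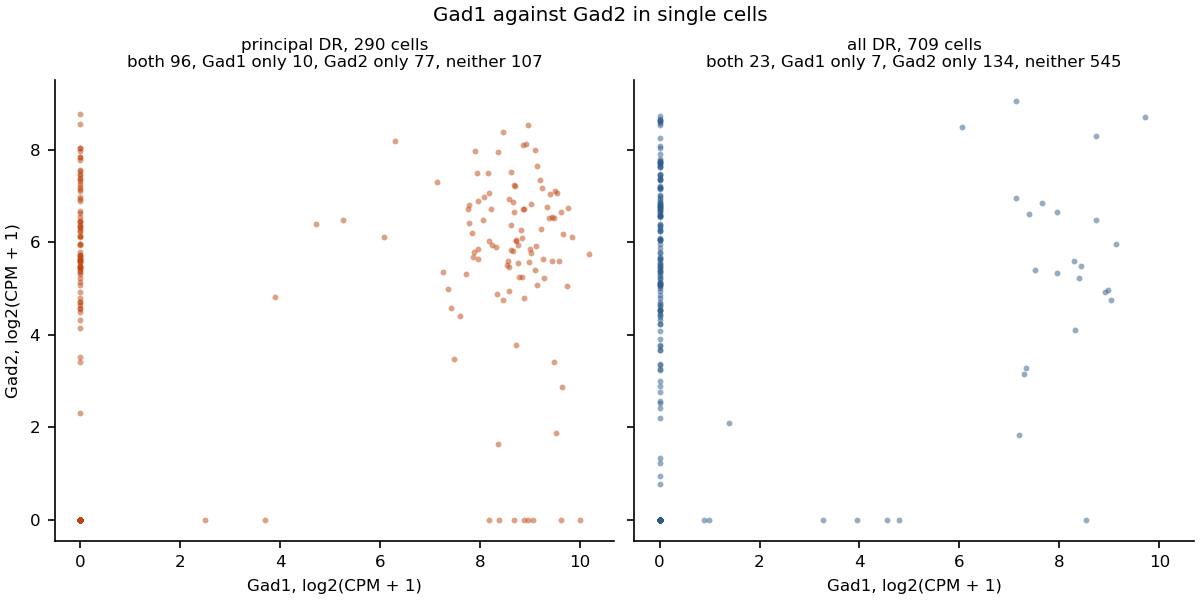
Gad1 (x axis) against Gad2 (y axis) as log2(CPM + 1) in each of 290 pDR cells and 709 All DR cells, 1 point per cell, with the count of each class above the panels. Cells with Gad1 form a cloud apart from 0, the pDR has 96 cells with both genes, and most Gad-positive cells of the other dissection lie on the Gad2 axis (134 cells).

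**Figure D3:**
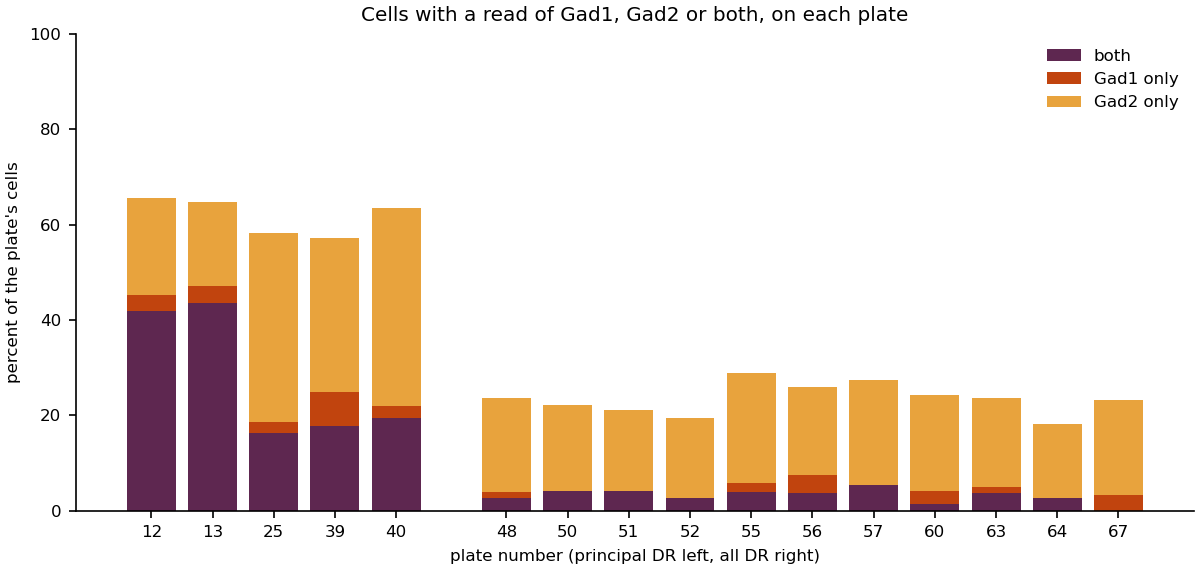
Percent of each plate's cells (y axis) with reads of both genes, Gad1 only or Gad2 only, for the 5 pDR plates and the 11 All DR plates. Bars of the pDR end between 57.1 and 65.6% and the others between 18.2 and 28.8%, and the share with both is largest on plates 12 and 13.

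The level of Gad2 was similar in cells with and without Gad1. In the pDR its mean was 92.8 CPM in cells with both genes and 93.0 CPM in cells with Gad2 only, and in the other dissection 110.3 and 95.8 CPM. Per length the order within a cell was mostly Gad1 over Gad2: with CPM divided by the summed exon length in kb, Gad1 was higher in 107 of the 119 cells with both (89.9%), and the median log2 ratio was 2.07 with quartiles of 0.96 and 2.98. Dividing by the longest transcript instead moved the median to 3.12. Over all 999 cells the Pearson correlation of ln(CPM+1) of the 2 genes was 0.46, and 0.37 after each plate's mean was subtracted. Within the 119 cells it was 0.14. All points share their library totals, so these are descriptions.

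Slc32a1 was close to absent. It had 13 reads in the whole table, 10 in the pDR and 3 in the other dissection, in 5 cells (0.501%, 0.163 to 1.16%). Of these cells 4 were on plates SER12 and SER13, and the share was 0.331% without SER12 and 0.328% without SER13. All 5 were Gad-positive: 3 had both genes and 2 had Gad2 only. They were 1.44% (0.469 to 3.33%) of the 347 Gad-positive cells, and 0 of the 652 Gad-negative cells had a read, which allows a share of up to 0.460% by a limit of 3 counts (the exact 95% upper bound is 0.564%). The 5 cells held 5, 2, 2, 3 and 1 reads of Slc32a1. The cell with 5 reads held 478 reads of Gad1 and 168 of Gad2, the cell with 3 held 364 of Gad2 and none of Gad1, and the 5 held 5413 to 12219 reads of Tph2 and 1602 to 3265 of Slc6a4. None of these 5 cells had a read of Slc6a5, the neuronal glycine transporter. At a minimum of 5 reads 1 cell remained, and at 10 CPM 0. At counts this low a cell that expressed the gene could not be told from one with a stray read. Any reads on exons shared with the opposite-strand gene Gm14205 could also be missing from these counts, which was not tested.

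The vesicular carrier that these cells did express was Slc18a2, which encodes VMAT2 and loads serotonin. It was read in 998 of 999 cells with a mean of 2992 CPM, and in 346 of the 347 Gad-positive cells. Slc17a8, the vesicular glutamate transporter VGLUT3, ran against the synthesis genes. It was read in 513 of 652 Gad-negative cells, which is 78.7% (75.3 to 81.8%), and in 136 of 347 Gad-positive cells, 39.2% (34.0 to 44.5%). Its share was 27.7% (19.9 to 36.7%) where both genes were read and 44.1% (37.3 to 51.1%) where Gad2 alone was. Within plates the mean log2 ratio of Gad-positive over Gad-negative cells was -2.87 ± 0.91 in the pDR (SD, n = 5 plates) and -1.61 ± 0.84 in the other dissection (SD, n = 11 plates). It was below 0 on all 16 plates, as it was for 0.234% of the 12834 genes.

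The uptake gene Slc6a11 was read in many cells at a low level. It had a read in 416 cells, 41.6% (38.6 to 44.8%), but with a median of 3.0 reads in those cells and a mean of 2.72 CPM over all cells. With cells thinned to 250000 reads the share was 29.2%. Its plate means were 2.68, 2.88, 2.31, 1.73 and 1.64 CPM in the pDR and ran from 1.31 to 6.95 CPM elsewhere, and the ranges overlapped. Between Gad-positive and Gad-negative cells it was higher on 3 of 5 and 8 of 11 plates, and the mean log2 ratios of 0.28 ± 1.09 and 0.32 ± 0.65 were smaller than the spread over plates. Its highest cell, at 222.5 CPM on plate SER55, was the one with the myelin and astrocyte reads, which held 514.2 CPM of Aqp4 and 791.3 CPM of Gja1. Without the 3 cells rich in astrocyte genes the highest All DR plate was at 3.90 CPM. The other 4 of the 5 highest cells held no read of Aqp4, Gja1, Slc1a3 or Gfap. Over the whole list of 8 astrocyte genes the summed level had a median of 0.00 CPM in Gad-positive cells (0.00 to 3152) and of 14.9 CPM in Gad-negative cells (0.00 to 965.7). One of the 8, the glutamate transporter gene Slc1a2, was read in over 50% of cells. Its log2 ratio of Gad-positive over Gad-negative cells was -2.19 ± 0.92 in the pDR, below 0 on 5 of 5 plates (6.04 against 30.4 CPM), and -0.93 ± 1.22 in the other dissection, below 0 on 9 of 11. Slc6a12 and Slc6a13, which encode further carriers of GABA, were read in 1.10% and 1.80% of cells.

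Of the breakdown genes, Abat was expressed by every cell. All 999 had at least 5 reads, with a median of 284 reads and a mean of 356.7 CPM. The pDR plates had means of 501.2, 467.3, 377.4, 397.0 and 396.9 CPM, against 224.4 to 394.6 CPM with a median of 302.0 elsewhere. A single All DR plate, SER52, was above the lowest pDR plate, so the ranges overlapped narrowly and the log2 ratio was 0.45. It was higher in Gad-positive cells on 5 of 5 pDR plates, but by little (0.13 ± 0.09, log2), and 8.27% of all genes were higher on every pDR plate. In the other dissection it was higher on 6 of 11 plates (0.05 ± 0.21). Cells without Gad1 and Gad2 thus still held Abat, at means of 416.6 CPM in the pDR and 315.7 CPM elsewhere. Aldh5a1, the next enzyme, had a read in 776 cells, 77.7% (75.0 to 80.2%), and a mean of 15.9 CPM. Its pDR plates were at 20.4, 17.6, 27.9, 26.0 and 12.8 CPM and the others between 10.1 and 17.7 CPM, which overlap. Gad-positive and Gad-negative cells differed by less than the spread over plates, with log2 ratios of 0.09 ± 0.37 and -0.03 ± 0.73. Akr7a5, an aldehyde reductase for succinic semialdehyde, was read in 95.2% of cells.

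The 2 aldehyde dehydrogenases of the alternative route were expressed very differently. Aldh9a1 was read in 942 cells, 94.3% (92.7 to 95.7%), with a mean of 44.1 CPM, and Aldh1a1 in 114 cells, 11.4% (9.51 to 13.5%). For Aldh9a1 the pDR plates were at 48.1, 40.7, 36.2, 16.3 and 44.7 CPM and the others from 41.1 to 53.5 CPM. The 3 pDR plates at 40.7, 36.2 and 16.3 CPM were below every All DR plate. SER39 was the lowest, and without it the log2 ratio of the dissections went from -0.29 to -0.10. The gene did not track the synthesis genes: the log2 ratio of Gad-positive over Gad-negative cells was 0.13 ± 0.57 in the pDR and -0.13 ± 0.31 elsewhere, above 0 on 2 of 5 and 5 of 11 plates.

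Aldh1a1 was low in nearly all cells that had it, with a median of 10.0 reads. Plate means were 1.14, 3.71, 2.11, 0.608 and 0.288 CPM in the pDR. On 10 of the 11 other plates they were under 3 CPM, and the last, SER55, was at 39.0 CPM. That plate held the cell with astrocyte and myelin reads, which had 929 reads or 1950 CPM of Aldh1a1, while the next highest cell of the series had 66.9 CPM. The log2 ratio of the dissections was -1.27, past the -1 that 2.12% of genes reached, and it was -0.12 without the 3 cells rich in astrocyte genes. The All DR ratio of Gad-positive over Gad-negative cells was 0.50 ± 1.99 with these cells and -0.10 without them. In the pDR, with none of these cells, it was 0.31 ± 0.97, above 0 on 3 of 5 plates. Of the Gad-positive cells 13.5% had a read of Aldh1a1, and of the Gad-negative cells 10.3%.

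**Figure D4:**
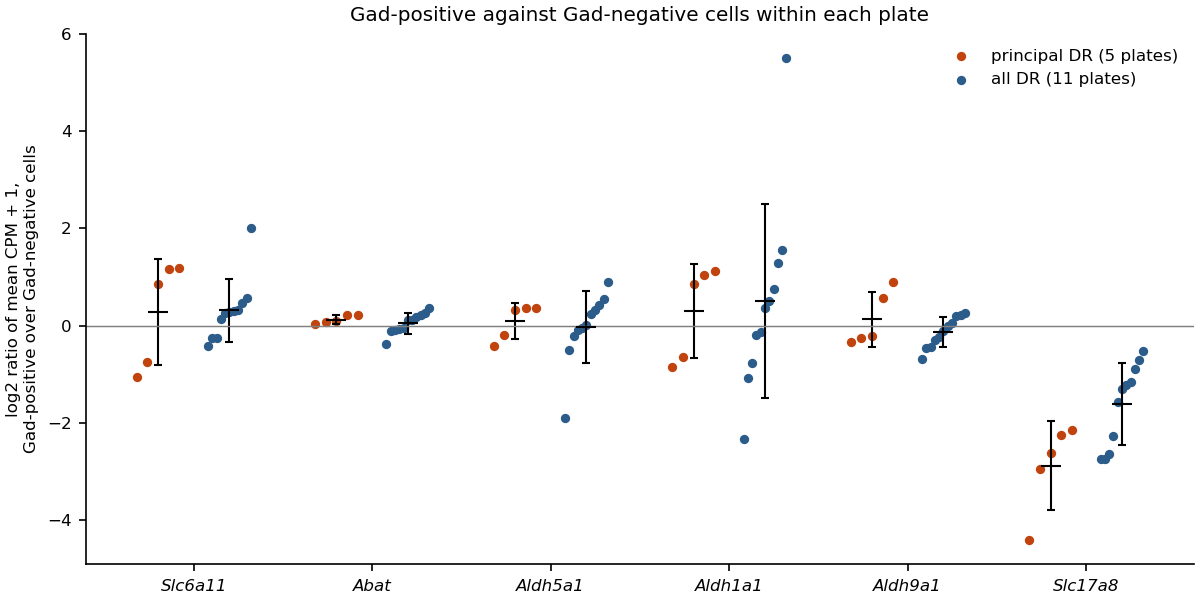
Log2 ratio of mean CPM + 1 of Gad-positive over Gad-negative cells (y axis) within each plate, 1 point per plate, for 5 members and Slc17a8, with the mean and SD over plates. Points of Slc17a8 are all below 0, the members lie on both sides of 0, and 1 All DR plate stands at 5.50 for Aldh1a1.

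Across the wider pathway few genes differed between Gad-positive and Gad-negative cells on every plate. The list of members and further pathway genes held 54 genes, and 36 of them other than Gad1 and Gad2 had a mean of at least 1 CPM. In the pDR 5 of these 36 (13.9%) were higher in Gad-positive cells on every plate, against 8.27% of all genes, and 3 (8.33%) were lower, against 8.06%. The 5 were Abat, Slc18a2 (0.41 ± 0.07), the amine oxidase gene Maoa (0.30 ± 0.15), Aldh3a2 (0.30 ± 0.17) and Aldh1b1 (0.19 ± 0.10), and none was among the 2.32% of genes with a log2 ratio of at least 1. Apart from Gad1 and Gad2, which define the classes, no member was among the 0.156% of genes higher on every plate of both dissections. The 3 that were lower on every pDR plate were Slc17a8, the glutamate transporter Slc1a1 (-0.71 ± 0.37) and Aldh16a1 (-0.42 ± 0.44). Of these, Slc17a8 alone was past a log2 ratio of -1 in the pDR, as were 1.47% of genes. In the other dissection Slc17a8 was lower on every plate, as were 0.569% of genes, and no member but the defining Gad1 and Gad2 was among the 0.273% that were higher on every plate. The median log2 ratio over the 36 was 0.15 in the pDR and 0.00 elsewhere, and over all 12834 genes it was 0.00 and -0.03. The putrescine enzymes that start the alternative route were expressed unevenly. Maob had a mean of 1114 CPM and Maoa of 135.2 CPM, Odc1 (ornithine decarboxylase) was read in 98.0% of cells, and the diamine oxidase gene Aoc1 and the agmatinase gene Agmat were read in 1.10% and 0.701%. Maob, a marker of serotonin neurons as well as astrocytes, was the one pathway gene besides Gad1 and Gad2 with plate means higher in the pDR and not overlapping (1389 to 1772 against 738.6 to 1112 CPM). Aldh2 was lower without overlap (25.3 to 43.2 against 44.6 to 82.5 CPM), as were 4.92% of all genes.

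Compared per kb of exon, Abat was the highest member in both dissections. In the pDR the means over 5 plates were 55.2 ± 6.89 CPM per kb for Abat, 17.1 ± 9.96 for Gad1, 11.0 ± 3.69 for Aldh9a1, 9.19 ± 0.821 for Gad2 and 3.71 ± 1.09 for Aldh5a1 (SD). The plate ranges of Gad1, Aldh9a1 and Gad2 overlapped, so these neighbours cannot be ordered, and the highest plate of Aldh5a1 (4.95) was above the lowest of Aldh9a1 (4.82). Slc6a11 and Aldh1a1 followed at 0.445 ± 0.11 and 0.318 ± 0.280, which also overlapped, and Slc32a1 was at 0.0134. In the other dissection the order was Abat (40.3 ± 6.13), Aldh9a1 (13.5 ± 1.06), Gad2 (3.65 ± 1.05), Aldh5a1 (2.56 ± 0.445) and Gad1 (1.33 ± 0.860). Here Aldh9a1 stood clear of its neighbours, and Gad2, Aldh5a1 and Gad1 overlapped.

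The members were next described over clusters of cells from which they and the pathway list were held out. Clustering on all other genes gave 12 clusters, 3 of which took over 50% of their cells from 1 plate, so that their levels cannot be told from those plates. With 2000 variable genes there were 11 clusters, none of which drew over 50% of its cells from 1 plate, and these are described here. Names are those the study gave its clusters, added where the markers of its text were high. The names DR-3-like and DR-4-like are tentative. The leading gene of the DR-4-like cluster was Crh, at a mean of 98.1 CPM against 2.05 CPM in the other cells. It was read in 80.8% of the cluster's 26 cells. The study describes Crh as a gene high in its DR-3 cluster and far lower in the rest. In the DR-3-like cluster 3 of 7 DR-3 markers were read in over 50% of cells. In the DR-4-like cluster 3 of 3 DR-4 markers were.

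Gad2 was read in over 50% of cells in 4 of the 11 clusters and Gad1 in 1. The DR-3-like cluster (76 cells, led by Plpp4, Smoc2 and Ret) had Gad1 in 56.6% of cells (44.7 to 67.9%) at a mean of 263.5 CPM, with Gad2 in 78.9%. The DR-2-like cluster (136 cells, led by Prph, Trh and Oas1e) had Gad1 in 48.5% (39.9 to 57.2%) and Gad2 in 83.8% (76.5 to 89.6%). The DR-1-like cluster (36 cells, led by Sox14, Arhgdib and Spag5) had them in 33.3% and 86.1%. Which of these held most Gad1 changed with the clustering: on all genes the one cluster over 50% was DR-2-like, with 71.7% of 106 cells. Those 106 cells came from 2 pDR plates, with 54.7% from SER12, so this share cannot be told from those plates. In the DR-3-like, DR-2-like and DR-1-like clusters the mean of Gad2 was similar, at 78.5, 79.2 and 71.0 CPM, while that of Gad1 ranged from 94.5 to 263.5 CPM. The fourth was an unnamed cluster of 45 cells, all of the All DR dissection (with Grik1 and Spp1 among its leading genes), which had Gad2 in 62.2% of cells (46.5 to 76.2%) at 69.8 CPM and Gad1 in 1 cell. Gad2 without Gad1 was also found in the MR-4-like cluster (111 cells, led by Piezo2, Pter and C1ql3), in 28.8% of cells (20.6 to 38.2%) against 1.80% for Gad1. An unnamed cluster of 145 cells led by Npas1, Nell1 and Dlk1 had Gad2 in 23.4% and Gad1 in 3.45%. No cluster had a higher share for Gad1 than for Gad2 under any of the 5 clusterings tried.

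Little of either gene was read in the others. The DR-5-like (170 cells), MR-2-like (124), MR-1-like (107), DR-4-like (26) and cDR-like (23) clusters had Gad2 in 8.24, 9.68, 2.80, 3.85 and 4.35% of cells and Gad1 in at most 4.35%. The DR-2-like cells differed between dissections: of 115 pDR cells 55.7% had Gad1 and 91.3% had Gad2, and of the 21 other cells 9.52% and 42.9%. In the DR-3-like cluster the shares were nearer, at 60.3% of 58 pDR cells and 44.4% of 18 others for Gad1.

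**Figure D5:**
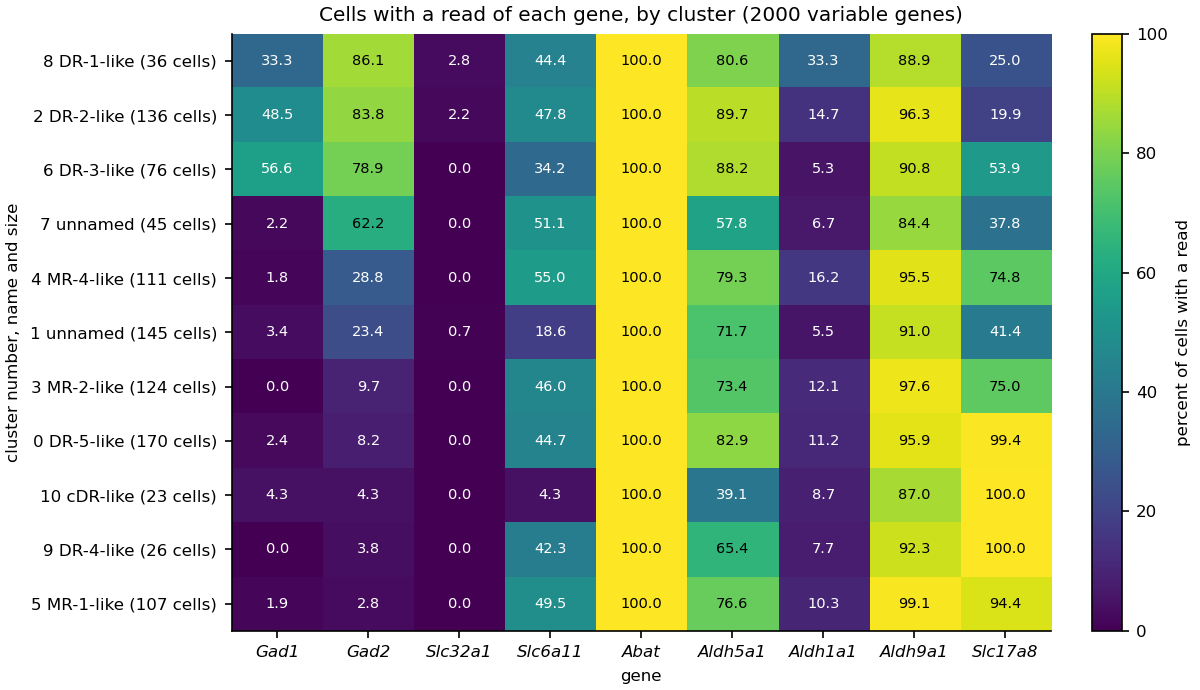
Percent of cells with a read (colour and printed number) of the 8 members and Slc17a8 (columns) in 11 clusters (rows, with cluster number, name and size), ordered by Gad2. Gad2 runs from 86.1 to 2.8%, Slc32a1 is at most 2.8%, and Abat is at 100% in every cluster.

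The other members were spread more evenly over the clusters. Abat was read in every cell of all 11, with means from 235.6 CPM in the MR-4-like to 462.1 CPM in the DR-2-like cluster, and Aldh9a1 in 84.4 to 99.1% of cells. Aldh5a1 ranged from 39.1% of cells (19.7 to 61.5%) in the cDR-like to 89.7% (83.3 to 94.3%) in the DR-2-like cluster. Slc6a11 was read in 1 of 23 cDR-like cells and in 55.0% of MR-4-like cells, and its mean was under 4 CPM in 10 of the 11. Aldh1a1 was most often read in the DR-1-like cluster, in 33.3% of cells (18.6 to 51.0%), at 6.07 CPM. In the unnamed cluster of 45 cells it had a mean of 44.3 CPM, and 0.952 CPM without the single cell with astrocyte reads.

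Over the 999 cells, the genes most like Gad1 by Pearson correlation of ln(CPM+1), among those with a mean over 10 CPM, were Asb4 (0.62), Pcsk6 (0.57), Trh (0.53), Fam19a2 (0.52) and Pla2g7 (0.48). The same 5 genes came out after each plate's mean was subtracted, at 0.38 to 0.53. For Gad2 they were Fam19a2 (0.51), Pcsk6 (0.50), Prmt8 (0.48), Pam (0.47) and Gad1 (0.46), of which 4 stayed. Trh, which encodes the precursor of thyrotropin-releasing hormone, was read in 73 of the 119 cells with both synthesis genes, which is 61.3% (52.0 to 70.1%), in 22.3% (16.8 to 28.5%) of those with Gad2 only and in 1.84% (0.955 to 3.19%) of Gad-negative cells. For Abat the nearest was Tmem30a, at 0.49 and at 0.26 with plate means subtracted, and 1 of its 5 genes stayed. No gene reached 0.30 with Aldh5a1 (highest Reep1, 0.21) or Aldh9a1 (highest Aplp1, 0.29). Among the members themselves, the only pair over 0.30 was Gad1 with Gad2. The next were Gad1 with Abat at 0.25 and Gad2 with Abat at 0.22, which were 0.06 and 0.09 with plate means subtracted.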

How the data were processed

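The 8 genes and all lists were chosen with earlier results of these data known. Each of 999 tdTomato-positive cells was a Smart-seq2 library, 290 and 709 by dissection. The study labels 1536 cells, and 537 were not analysed here. Per the labels and the study's methods, the authors ran bcl2fastq 2.19.0.316, aligned pairs of 75-base reads to mm10 with STAR 2.6.1a, counted with HTSeq 0.11.2 without strand, removed genes of chromosome Y, kept cells with 300 genes and 50000 reads, and deposited CPM. The annotation version is not given in the sources used here. Every value above 0 (100%) was a whole multiple of 1 read within 0.001, so reads were recovered. A count test was not run, since each dissection is treated as 1 sample. A cell's plate is the SER number in its name. No doublet caller was run on singly sorted cells. Of the symbols, 52532 were found in GENCODE M21. Genes with reads in at least 3 cells (25522) were used. Dissections were compared as log2 ratios of mean CPM + 1 over plate means, and Gad-positive with Gad-negative cells within plates with at least 5 of each. Clusters came from ln(CPM+1), 20 components, 20 neighbours and Louvain resolution 1 (Seurat 5.3.0, R 4.3.3), with 52 listed genes held out. A name needed a mean z-score of its markers of at least 1, at least 3 markers in over 50% of cells, 1 among the 10 leading genes and no glial gene among the first 3, a rule set with scores known. Leading genes had a mean over 20 CPM and the largest fold. Genes named are the members, the lists written for the pathway and for other cells, the 5 nearest genes of each member over 10 CPM, leading genes and cluster markers. The lists of microglial and endothelial genes summed to at most 80.2 and 40.0 CPM in any cell. Those of GABA and dopamine neurons were each read in over 50% of cells for 1 gene, Gata2 and Slc10a4, which serotonin neurons also express. Of oligodendrocyte genes, summed medians were 20.9 CPM in Gad-positive and 26.6 CPM in Gad-negative cells. The sum was over 100 CPM in 54 of 347 Gad-positive and 118 of 652 Gad-negative cells, with maxima of 77749 and 13757 CPM. Steps were tested on simulated data in Python 3.11.15 (NumPy 2.4.6, SciPy 1.17.1, pandas 2.3.3, matplotlib 3.10.9). Some genes of the lists are not reported here.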

Additional observations from a re-analysis of the deposited data

How the results depend on the processing

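No paired analysis was possible because the labels give no replicate numbers that tie cells or plates of one dissection to the other. Leaving out each plate in turn gave shares of all cells from 10.4 to 14.5% for Gad1 (lowest without SER12) and from 30.0 to 34.3% for Gad2. A minimum of 5 reads gave 0.10% for Slc32a1, 16.5% for Slc6a11, 62.2% for Aldh5a1, 9.11% for Aldh1a1, 90.4% for Aldh9a1 and 0.299% for Slc32a1 among Gad-positive cells. A minimum of 10 CPM gave 0%, 7.81%, 54.1%, 7.41%, 87.9% and 0% in the same order. Thinning gave 29.2% for Slc6a11, 70.1% for Aldh5a1 and 92.5% for Aldh9a1. Pooling cells over plates gave a log2 ratio of 2.51 for Aldh1a1 in the All DR dissection, which rests on 1 cell. With plate means subtracted, 1, 2 and 3 of the 5 nearest genes of Abat, Aldh5a1 and Aldh9a1 stayed. The longest transcript gave 3.12 for Gad1 over Gad2. The other 644 recomputed values stayed within their interval, 1 SD over plates or, for counts of clusters or genes, 1.5 times. Leaving out cells rich in astrocyte genes, or the ribosomal RNA gene CT010467.1 (median 18.0% of reads) from the totals, was chosen after seeing the data. Depth limits Slc6a11 and Slc32a1.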
